A study of Mus musculus with 96 samples.

Results

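The genes described here are 10 transporters that carry bile acids, organic anions and drug conjugates into or out of hepatocytes. They are Slc10a1, Slco1a1, Slco1a4 and Slco1b2, which take up solutes from blood, and Abcc2, Abcc3, Abcc4, Abcb1a, Abcb11 and Abcg2, which export them. They were chosen by function, with earlier results of these data known. Found by symbol among the 47373 genes counted, they are 10 of 47373. The RNA came from livers of 12 male B6C3F1 mice, a hybrid laboratory strain, aged 10 to 11 weeks. Drinking water with 600 ppm phenobarbital, a barbiturate drug, was given to 6 of them for 7 days, and the other 6 were controls at 0 ppm. Pieces of each liver, mixed from several lobes and first frozen, were kept in 8 states, giving 96 libraries and 6 per group. Before embedding in paraffin, some portions were fixed in 70% ethanol and others in 10% formalin, both for 3 months, and another set had 18 hours of formalin before its 3 months of ethanol. Formalin cross-links and adducts RNA, and 4 further states treated the 3-month formalin material to reverse this. These were heating of RNA in TAE, a Tris-acetate-EDTA buffer, for 30 minutes at 70 °C, an incubation for 18 hours at 55 °C with an organocatalyst followed by the AllPrep or the PureLink isolation kit, and the same incubation without catalyst, called heat-only here. Frozen liver was the comparison for every preserved state. The same 12 animals stand behind all 8 states, so the states are not independent replicates of the phenobarbital effect.

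Hepatocytes face blood on their basolateral side and bile on their canalicular side. Uptake carriers of the SLC10 and SLCO families sit on the blood side, while ATP-driven ABC pumps export bile acids and conjugates into bile or back into blood. Phenobarbital activates the nuclear receptor CAR (gene Nr1i3) and, at least in part, its relative PXR (Nr1i2), which bind DNA as partners of RXR at paired AGGTCA-like half-sites and switch on drug-metabolising enzymes and some transporters. The farnesoid X receptor FXR (Nr1h4) senses bile acids and controls the canalicular bile salt pump Abcb11.

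Promoter windows from RefSeq on GRCm38.p6, 250 bases before to 50 after each transcript start, were held for 9 of the 10 members, in 13 windows. Shown are those of Abcc2 and Slco1a4, which rose with phenobarbital in every state, and of Slco1a1, the gene next to Slco1a4 on the chromosome, for which no change passed the test. Capitals mark AGGTCA or TATAAA on the strand shown or, reversed and complemented, on the other strand.
Abcc2 (GRCm38.p6, chr19:43782058-43782357, plus strand): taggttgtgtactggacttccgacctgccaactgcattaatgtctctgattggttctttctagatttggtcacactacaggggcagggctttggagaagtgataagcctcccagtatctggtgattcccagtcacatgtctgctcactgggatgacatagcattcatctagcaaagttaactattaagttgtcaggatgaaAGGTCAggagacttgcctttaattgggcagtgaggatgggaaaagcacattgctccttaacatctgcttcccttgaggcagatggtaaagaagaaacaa
Slco1a4 (GRCm38.p6, chr6:141856171-141856470, minus strand): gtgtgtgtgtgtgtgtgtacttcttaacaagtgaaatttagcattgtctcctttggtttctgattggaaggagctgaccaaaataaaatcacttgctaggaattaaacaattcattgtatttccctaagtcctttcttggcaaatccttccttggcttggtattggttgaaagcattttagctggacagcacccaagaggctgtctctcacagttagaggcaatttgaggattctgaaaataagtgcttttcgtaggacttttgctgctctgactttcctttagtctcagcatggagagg
Slco1a1 (GRCm38.p6, chr6:141946913-141947212, minus strand): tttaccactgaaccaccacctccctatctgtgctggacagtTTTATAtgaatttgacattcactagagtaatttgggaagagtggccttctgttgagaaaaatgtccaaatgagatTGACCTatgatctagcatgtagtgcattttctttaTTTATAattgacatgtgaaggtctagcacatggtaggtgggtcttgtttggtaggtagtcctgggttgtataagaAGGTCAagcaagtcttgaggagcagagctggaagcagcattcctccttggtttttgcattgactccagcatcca
Counted from base 1 at the 5′ end of each window, AGGTCA began at base 202 in the Abcc2 window. The Slco1a1 window held it at base 227 and, on the other strand, at base 117, with TATAAA on the other strand at bases 42 and 152. Neither of these motifs nor AGTTCA was found in the Slco1a4 window. Among all 32851 windows of this length, searched on both strands, 16.3% held AGGTCA, 14.0% AGTTCA and 13.6% TATAAA, so that single hits of this kind were common. Direct repeats with any 4 bases between the half-sites, which hold half-sites already counted, were in 5 windows for AGGTCA with AGGTCA and in 4 for AGTTCA with AGTTCA, and the 2 mixed orders were in 0. None of these 4 repeats was in a window of the members.

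Library totals ran from 1264563 to 18442730 counts with a median of 11913138, and the lowest was a 3-month formalin control, animal 8A. Cyp2b10, the usual marker of CAR activation, was at 834 CPM, counts scaled to a common library size, or more in every phenobarbital library and at 4.14 CPM or less in every control library, so exposure matched the labels. The summed level of 8 hepatocyte markers was 48768 to 80182 CPM in frozen phenobarbital and 69441 to 95485 CPM in frozen control livers, and Tat and Hnf4a were the 2 of 8 that fell. Of the markers of other cells, 0 of 3 tested cholangiocyte, 0 of 8 sinusoidal endothelial, 0 of 8 Kupffer and 0 of 4 tested blood genes were called in that comparison, and 1 of 8 stellate genes, Col3a1, was higher. In preserved portions endothelial Lyve1 was called higher with phenobarbital in 3-month formalin, TAE, heat-only and AllPrep, and Cdh5 in 3-month formalin. Kupffer Adgre1 was called higher in AllPrep portions, and stellate Col3a1 in TAE and AllPrep portions. Of the hepatocyte markers, Tat was called lower in ethanol, TAE, heat-only, AllPrep and PureLink portions, and Hnf4a in TAE, AllPrep and PureLink. Alb was called lower in ethanol and PureLink portions, and Ttr in heat-only portions. Over the 8 states the median log2 fold change was -0.39 to -0.13 for hepatocyte and 0.26 to 0.51 for Kupffer markers. The part of these shifts in the results below was not tested. In whole liver, fewer cells of a type and less RNA per cell cannot be told apart.

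The first comparison asked which transporters responded to phenobarbital, and whether the response could be read in each preservation state. Abcc3, Abcc2 and Slco1a4 rose in 8 of 8 states and Abcb1a in 6 of the 7 in which it could be tested. Abcc4 and Slco1b2 rose in 1 state each. No call was made in either direction in any state for Abcb11, Abcg2, Slc10a1 and Slco1a1, and 0 members fell in any state. Calls are those with a Benjamini-Hochberg adjusted p under 0.05 over all genes in edgeR's quasi-likelihood test, 6 livers against 6. In frozen liver 4 of 10 members rose, where 5.89% of all genes tested did. Because the members were chosen with earlier results of these data known, such shares are description only. Members rose in ethanol (5 of 10, against 4.82% of all genes), 18-hour formalin (4 of 10, 3.45%), 3-month formalin (3 of 9, 1.66%) and TAE portions (3 of 10, 2.35%). They also rose in heat-only (4 of 10, 3.53%), AllPrep catalyst (5 of 10, 3.12%) and PureLink catalyst portions (4 of 10, 3.21%). The 0 members that fell stand beside 3.53% of all genes that fell in frozen, 2.16% in ethanol, 1.43% in 18-hour formalin, 0.446% in 3-month formalin, 0.941% in TAE, 1.5% in heat-only, 1.82% in AllPrep and 1.44% in PureLink catalyst portions. The median log2 fold change of the members was 0.39 in frozen liver, beside -0.01 for all genes, and lay between 0.29 and 0.48 over the 8 states.

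**Figure D1:**
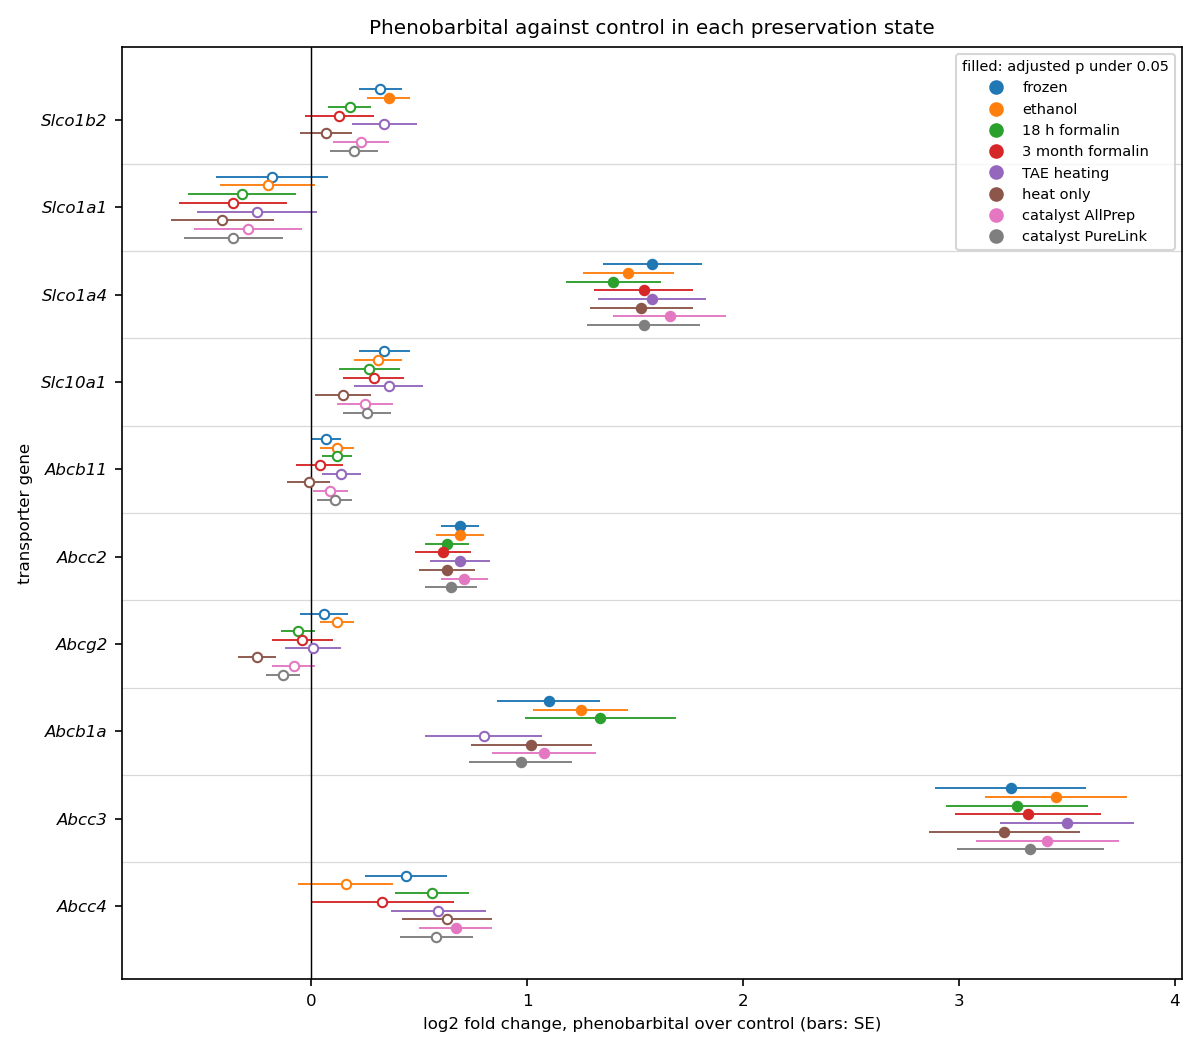
Log2 fold change of phenobarbital over control livers (horizontal axis, bars are SE) for each transporter in the 8 preservation states (colours). Filled points have an adjusted p under 0.05. Abcc3 lies between 3.21 and 3.50, Slco1a4 between 1.40 and 1.66 and Abcc2 between 0.61 and 0.71, all filled, while every Slco1a1 point is open and below 0.

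Abcc3 (ENSMUSG00000020865, chromosome 11, 94343295 to 94392997, minus strand) encodes Mrp3, which exports glucuronide conjugates from hepatocytes into blood. In frozen liver it had 482, 638 and 762 CPM (lowest, median and highest) in phenobarbital livers, against 31.9, 47.3 and 154 CPM in control livers. The groups did not overlap, and control animal 21C was far above the other 5 controls, which reached at most 82.1 CPM. After 3 months in formalin it had 349, 419.5 and 482 CPM (lowest, median and highest) in phenobarbital livers, against 18.7, 24.9 and 98.1 CPM in control livers. In the heat-only portions, where the distance was smallest, it had 203, 425 and 543 CPM (lowest, median and highest) in phenobarbital livers, against 20.7, 34.5 and 105 CPM in control livers. The groups stayed apart in all 8 states, a pattern shown in this direction by 3.81% of genes in frozen liver, 3.32% in ethanol, 2.67% in 18-hour formalin, 1.41% in 3-month formalin, 2.03% in TAE, 1.88% in heat-only, 2.3% in AllPrep and 2.1% in PureLink catalyst portions. The log2 fold change ran from 3.21 ± 0.35 (SE) in heat-only to 3.50 ± 0.31 in TAE portions, with adjusted p between 5.99e-06 and 5.54e-05. The coefficient of variation between animals was 13.1 to 30.5% among phenobarbital livers and 61.9 to 75.1% among control livers over the states.

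Abcc4 (ENSMUSG00000032849, chromosome 14, 118482692 to 118706219, minus strand), the Mrp4 pump that exports bile acids and cyclic nucleotides across the basolateral membrane, was scarce, with 23 to 123 counts in the phenobarbital libraries and 8 to 72 in the control libraries. In AllPrep catalyst portions it had 3.72, 5.07 and 6.24 CPM (lowest, median and highest) in phenobarbital livers, against 2.36, 3.13 and 4.07 CPM in control livers, a log2 fold change of 0.67 ± 0.17 (SE, adjusted p = 0.0351). The groups overlapped there as in every other state. That call was lost when any of 7 animals was left out (controls 8D, 21C, 82B and 90C, phenobarbital 20B, 20D and 75C), with adjusted p from 0.0195 to 0.0807 over the 12, and at 0.0545 with no low-count filter. In frozen liver it had 5.94 ± 1.65 CPM in phenobarbital and 4.39 ± 0.833 CPM in control livers (SD, n = 6 each), a log2 fold change of 0.44 ± 0.19 (SE, adjusted p = 0.163). All 8 log2 fold changes were positive, from 0.16 in ethanol to 0.67 in AllPrep portions. Without control 8D or phenobarbital 18D the 18-hour formalin result, at an adjusted p of 0.0825 with all animals, passed the threshold at 0.0411 and 0.0437. Without phenobarbital 18B the PureLink result passed at 0.0295, against 0.0643 with all animals. DESeq2 called Abcc4 in both of these states (0.0415 in 18-hour formalin and 0.0368 in PureLink portions), and library totals alone in PureLink portions (0.0448).

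**Figure D2:**
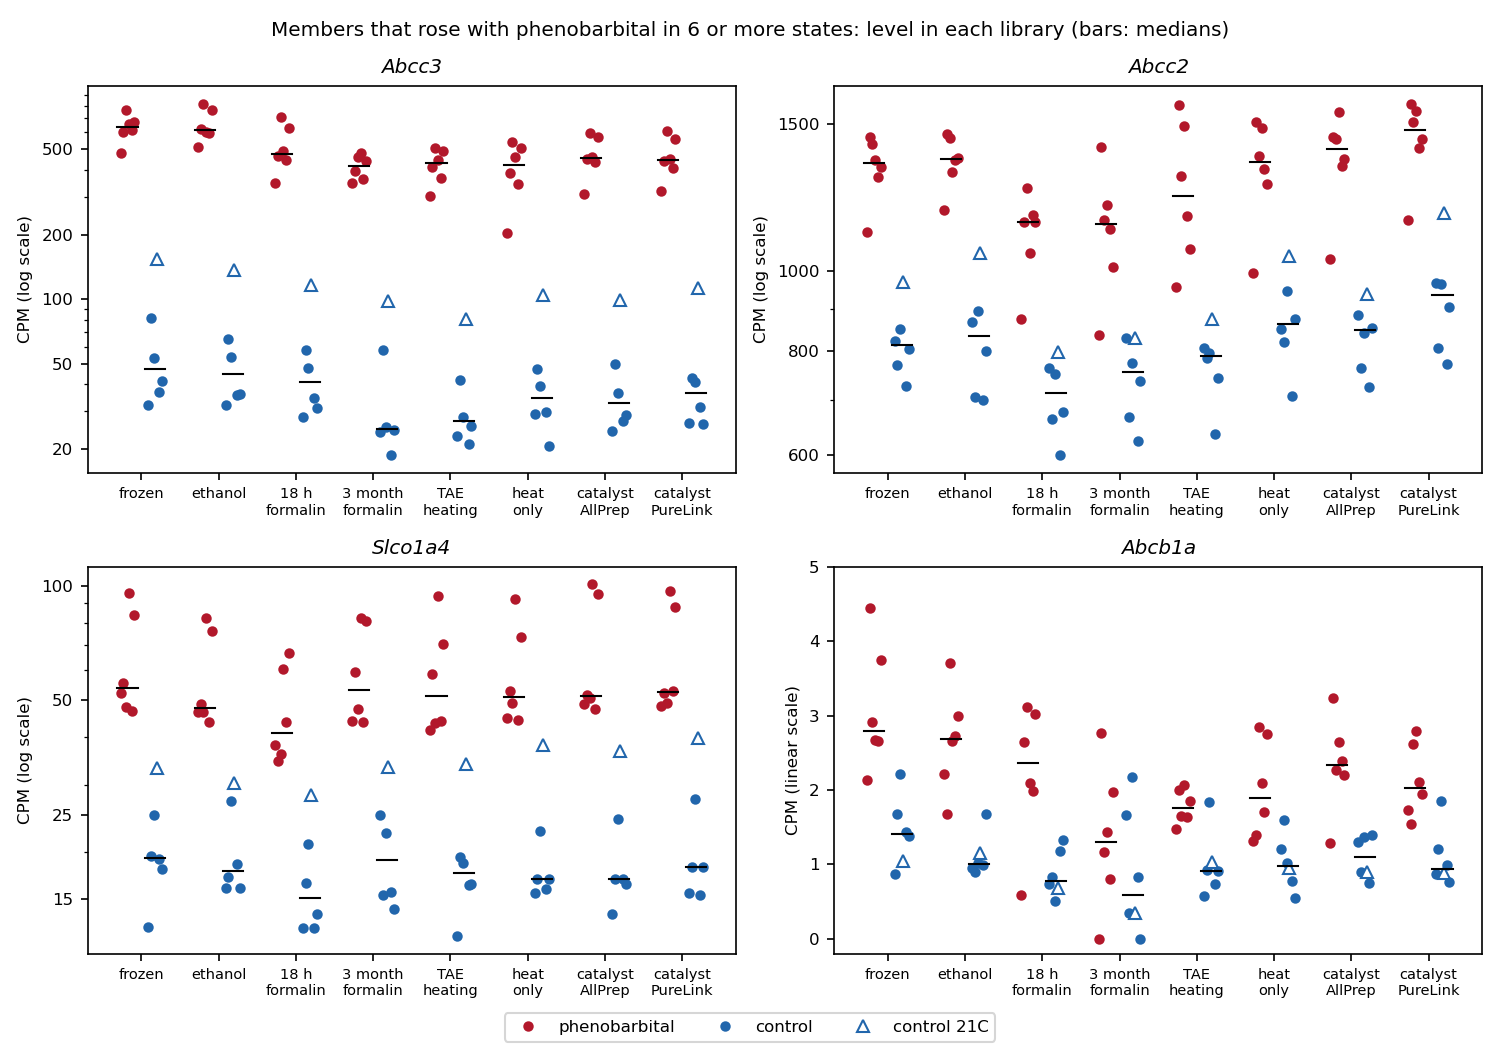
CPM of Abcc3, Abcc2, Slco1a4 (log axes) and Abcb1a (linear axis) in each of the 96 libraries by preservation state, with phenobarbital livers in red to the left of control livers in blue, and black bars at the medians. The open triangle is control 21C, which is the highest control for Abcc3 and Slco1a4 in all 8 states, yet below every phenobarbital liver.

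On the canalicular side, Abcc2 (ENSMUSG00000025194, chromosome 19, 43782192 to 43840740, plus strand) encodes Mrp2, which exports bilirubin glucuronides and other conjugates into bile. In frozen liver it had 1114, 1345 and 1447 CPM (lowest, median and highest) in phenobarbital livers, against 726, 815 and 968 CPM in control livers. No library of one group lay inside the range of the other. In TAE portions it had 956, 1231 and 1583 CPM (lowest, median and highest) in phenobarbital livers, against 636, 790.2 and 874 CPM in control livers. The groups were apart in 6 of 8 states, and they overlapped in heat-only and PureLink catalyst portions, where phenobarbital animal 18B, at 994 and 1150.5 CPM, was below control 21C, at 1042 and 1173 CPM. The log2 fold change was 0.69 ± 0.09 (SE, adjusted p = 0.000222) in frozen liver and 0.61 ± 0.13 (SE, adjusted p = 0.0233) after 3 months in formalin, and 0.61 to 0.71 over all states. The 3-month formalin call was lost without control 8C, 82B or 90C or phenobarbital 20B, at adjusted p of 0.0602, 0.0597, 0.0584 and 0.0518, with a range over the 12 animals left out in turn of 0.00667 to 0.0602.

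Abcb1a (ENSMUSG00000040584, chromosome 5, 8660077 to 8748575, plus strand) encodes a P-glycoprotein that expels lipophilic drugs. It was the rarest member, with 1.36 to 3.09 CPM on average in phenobarbital groups and 0.873 to 1.44 CPM in control groups. In ethanol portions it had 1.68, 2.69 and 3.71 CPM (lowest, median and highest) in phenobarbital livers, against 0.898, 1.01 and 1.68 CPM in control livers, and the groups just missed overlapping, at the shared rounded value of 1.68 CPM. In frozen liver, with 30 to 60 counts in phenobarbital and 11 to 29 in control libraries, they overlapped slightly. The log2 fold change was 1.10 ± 0.24 (SE, adjusted p = 0.0103) in frozen, 1.25 ± 0.22 (SE, adjusted p = 0.00317) in ethanol and 1.08 ± 0.24 (SE, adjusted p = 0.0171) in AllPrep catalyst portions, and these 3 calls were kept whichever animal was left out. In TAE portions it was 0.80 ± 0.27 (SE, adjusted p = 0.148), and without control 8D the adjusted p there was 0.0292. After 3 months in formalin 1 phenobarbital and 1 control library had 0 counts, and the gene did not pass the low-count filter.

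The other 3 Abcb1a calls depended on which animals were included. In 18-hour formalin portions the log2 fold change was 1.34 ± 0.35 (SE, adjusted p = 0.0385), lost without control 8A, 8C, 8D, 21C or 82B or phenobarbital 18D, 20B or 80B. In heat-only portions it was 1.02 ± 0.28 (SE, adjusted p = 0.0475), lost without control 8A, 8D, 21C, 82B or 90C or phenobarbital 20B, 20D, 75C or 80B. The PureLink catalyst value was 0.97 ± 0.24 (SE, adjusted p = 0.0369), lost without control 8A, 8C, 21C, 82B or 90C or phenobarbital 20B, 20D, 75C or 80B. With 1 animal left out in turn, the adjusted p reached 0.091 for Abcb1a in 18-hour formalin, 0.123 in heat-only and 0.0871 in PureLink portions. With no low-count filter the PureLink call was lost (0.0559), and the heat-only call was lost with RLE scaling (0.051), library totals alone (0.0508) and no filter (0.0882). With 1 animal left out, the log2 fold change itself stayed between 0.88 and 1.54 in these 3 states.

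For the bile salt export pump Abcb11 (ENSMUSG00000027048, chromosome 2, 69238282 to 69342616, minus strand), the main canalicular pump for bile acids, frozen livers had 1276, 1399.5 and 1459.6 CPM (lowest, median and highest) in phenobarbital livers, against 1180.0, 1334 and 1408 CPM in control livers. These ranges overlapped, and the log2 fold change was 0.07 ± 0.07 (SE, adjusted p = 0.555). Over all states it lay between -0.01 and 0.14, with SE of 0.07 to 0.11. Abcg2 (ENSMUSG00000029802, chromosome 6, 58584523 to 58695676, plus strand) encodes the Bcrp protein, a pump for sulfated conjugates and drugs, and had 109.6, 134 and 171 CPM (lowest, median and highest) in phenobarbital livers, against 110.3, 135 and 146 CPM in control livers in frozen portions. Its log2 fold change was 0.06 ± 0.11 in frozen liver and -0.25 ± 0.09 (SE, adjusted p = 0.164) in heat-only portions, the extremes of all states being -0.25 and 0.12. The coefficient of variation between animals over the states was 3.22 to 12.5% in phenobarbital and 3.62 to 10.1% in control groups for Abcb11, and 7.64 to 21.1% in phenobarbital and 10.3 to 17.2% in control groups for Abcg2.

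Among the uptake carriers, Slco1a4 (ENSMUSG00000030237, chromosome 6, 141805440 to 141856199, minus strand) encodes Oatp1a4, which takes up cardiac glycosides and organic anions. In frozen liver it had 46.8, 53.8 and 95.9 CPM (lowest, median and highest) in phenobarbital livers, against 12.7, 19.3 and 33.2 CPM in control livers. Every phenobarbital liver was above every control liver, with control 21C the nearest. In 18-hour formalin portions it had 34.7, 41.0 and 66.6 CPM (lowest, median and highest) in phenobarbital livers, against 12.6, 15.1 and 28.2 CPM in control livers. In PureLink catalyst portions it had 48.2, 52.6 and 96.8 CPM (lowest, median and highest) in phenobarbital livers, against 15.4, 18.2 and 39.7 CPM in control livers. The groups were apart in 8 of 8 states, and the log2 fold change was 1.58 ± 0.23 (SE, adjusted p = 0.000798) in frozen, 1.40 ± 0.22 (SE, adjusted p = 0.00175) in 18-hour formalin and 1.66 ± 0.26 (SE, adjusted p = 0.00171) in AllPrep catalyst portions. Phenobarbital animals 20D and 80B stood above the other 4 phenobarbital livers in 8 of 8 states.

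Slco1b2 (ENSMUSG00000030236, chromosome 6, 141629518 to 141686646, plus strand), the Oatp1b2 carrier for bilirubin, bile acids and many drugs, had 1764, 1945 and 2279 CPM (lowest, median and highest) in phenobarbital livers, against 1426, 1510.0 and 1993 CPM in control livers in frozen portions. The highest control, 21C, lay inside the phenobarbital range, and the log2 fold change was 0.32 ± 0.10 (SE, adjusted p = 0.0629). Without 21C the adjusted p was 0.0136, in a range of 0.0136 to 0.121 over the animals left out, and DESeq2 also called the rise (0.0136). In ethanol portions the gene had 1451, 1789.8 and 1980.1 CPM (lowest, median and highest) in phenobarbital livers, against 1254, 1367 and 1534 CPM in control livers, a log2 fold change of 0.36 ± 0.10 (SE, adjusted p = 0.0396). That call was lost when any of 9 animals was left out (controls 8A, 8C, 8D, 82B and 90C, phenobarbital 18B, 18D, 20D and 80B), with adjusted p up to 0.101, and also with library totals alone (0.0784) and with no low-count filter (0.0706). In the other 6 states the log2 fold change was 0.07 to 0.34.

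Slc10a1 (ENSMUSG00000021135, chromosome 12, 80953183 to 80968705, minus strand) encodes Ntcp, the sodium-dependent carrier that takes up most conjugated bile acids. In frozen liver it had 468, 562 and 685 CPM (lowest, median and highest) in phenobarbital livers, against 365, 451 and 547 CPM in control livers. The ranges overlapped, and the log2 fold change was 0.34 ± 0.12 (SE, adjusted p = 0.0931). Without control 21C, the highest control, the adjusted p was 0.0489, in a range of 0.0489 to 0.175. In each of the 8 states the mean was higher in phenobarbital livers, and the log2 fold changes were 0.15 to 0.36 (SE 0.11 to 0.16).

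Slco1a1 (ENSMUSG00000041698, chromosome 6, 141907282 to 141946962, minus strand) encodes Oatp1a1, an organic anion carrier that is abundant in male mouse liver. In frozen liver it had 329, 842 and 1075 CPM (lowest, median and highest) in phenobarbital livers, against 719.9, 816 and 1051 CPM in control livers, a log2 fold change of -0.18 ± 0.26 (SE, adjusted p = 0.726). The median was slightly higher in phenobarbital than in control livers, while the phenobarbital range was wider and reached further down. Of the phenobarbital animals, 20B had 229 to 329 CPM and 80B 353 to 464 CPM over the 8 states. The lowest control, 82B, had 557 to 875 CPM, so the 2 animals were below every control in every state. Phenobarbital animal 18B, at 786 to 1075 CPM, was the highest of its group in 7 of 8 states. The coefficient of variation was 37.9 to 45.7% among phenobarbital livers and 11.1 to 21.3% among control livers. No test of this spread was run, and in each of the 8 states the mean was lower in phenobarbital livers, by log2 fold changes of -0.41 to -0.18 (SE 0.22 to 0.28).

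**Figure D3:**
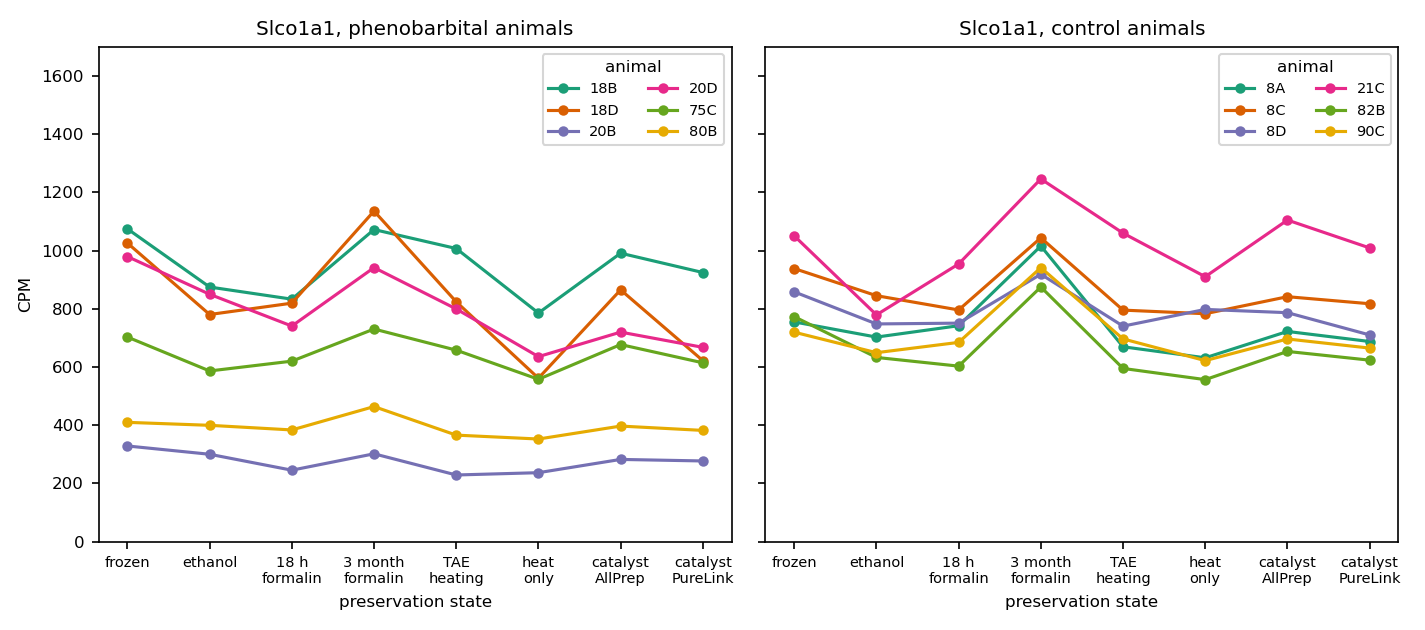
CPM of Slco1a1 (vertical axis, from 0) in the 8 preservation states (horizontal axis) for each phenobarbital animal (left) and each control animal (right), with 1 line per animal. The lines of phenobarbital animals 20B and 80B reach at most 464 CPM in any state, while no control is below 557 CPM.

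The animals kept their places across the states for other members too. Phenobarbital animal 18B was the lowest of its group for both Abcc2 and Abcc3 in 8 of 8 states, and 20B was the highest for Abcc3 in 7 and the lowest for Slco1a1 in 8. Among the controls, 21C was the highest for Abcc3, Slco1a4 and Slco1b2 in 8 states and for Abcc2 and Slco1a1 in 7, and 82B was the lowest for Abcc2 in 8. Cyp2b10 in control 21C was 0.0789 to 0.41 CPM over the states, and the other controls had 0 to 4.14 CPM. Its value was the highest among controls in 1 of 8 states.

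Slco1b2, Slco1a4 and Slco1a1 lie beside each other on chromosome 6, with Slco1c1 before them and Slco1a6 and Slco1a5 after them. The last 3 genes did not pass the low-count filter in frozen liver. Within this run of genes the frozen log2 fold change was 1.58 ± 0.23 for Slco1a4, and 0.32 ± 0.10 and -0.18 ± 0.26 for its neighbours on either side. The difference between the genes was not tested.

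Whether preservation altered the size of the phenobarbital effect was tested as an interaction, for each preserved state against frozen liver. For the members, 0 of 10 were called in each of the 7 fits, where 0% of all genes were. These fits did not pair the libraries of an animal. The number of genes at an unadjusted p under 0.05 ran from 170 to 662 over the fits, of 14279 to 14932 tested. DESeq2 also called 0 genes in each. With the replicate block, which pairs libraries by animal, that number ran from 614 to 1652. There 9 genes were called in the heat-only fit, 0 of them members. A lack of calls does not show that the effect was equal in preserved and frozen liver. In the unpaired fits the Abcc3 log2 fold change minus its frozen value was -0.05 to 0.26 over the 7 states, with SE of 0.46 to 0.50. The corresponding range was -0.08 to 0.01 for Abcc2 (SE 0.13 to 0.16) and -0.17 to 0.06 for Slco1a4 (SE 0.33 to 0.37). These SE take no account of the pairing. In the paired fits the ranges were -0.12 to 0.2 for Abcc3, -0.09 to 0.01 for Abcc2 and -0.14 to 0.06 for Slco1a4. The 1 member at an unadjusted p under 0.05 in the unpaired fits was Abcg2 in heat-only portions, at -0.32 ± 0.15 (SE, adjusted p = 0.999).

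Levels of different genes were compared as CPM per kilobase of exon, in frozen liver. With phenobarbital the order was Slco1b2 (400.3 ± 44.5, SD, n = 6), Abcb11 (269 ± 12.8), Slc10a1 (256 ± 42.6), Abcc2 (156 ± 13.9), Slco1a1 (143 ± 61.7), Abcc3 (111 ± 16.2), Abcg2 (16.6 ± 2.96), Slco1a4 (9.93 ± 3.26), Abcc4 (0.93 ± 0.258) and Abcb1a (0.565 ± 0.154). The ranges of the 6 livers overlapped between Abcb11 and Slc10a1, between Abcc2, Slco1a1 and Abcc3, between Abcg2 and Slco1a4, and between Abcc4 and Abcb1a. In control livers the order was Slco1b2 (319.8 ± 42.3), Abcb11 (256 ± 15.7), Slc10a1 (203 ± 29.0), Slco1a1 (161 ± 24), Abcc2 (96.6 ± 9.7), Abcg2 (15.9 ± 1.9), Abcc3 (11.7 ± 8.18), Slco1a4 (3.31 ± 1.09), Abcc4 (0.687 ± 0.13) and Abcb1a (0.262 ± 0.088). Here the ranges overlapped between Abcb11, Slc10a1 and Slco1a1 in turn, and between Abcg2 and Abcc3. Abcc3 per kilobase was thus near Abcc2 and Slco1a1 in phenobarbital livers, and near Abcg2 in control livers.

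The next comparison set each preserved state against frozen liver, 12 libraries against 12 with treatment as a covariate. The 2 libraries of an animal were not paired in these fits, and paired fits are given further below. Abcg2 and Abcb11 fell in 7 of 7 states, Slco1b2 in 6, Slc10a1 and Abcb1a in 5, and Abcc3 and Abcc4 in 3. Abcc2 fell in 1 state and rose in 1. Neither Slco1a1 nor Slco1a4 was called in any of these unpaired fits, at adjusted p of 0.0819 to 0.974. With pairing by animal, Slco1a1 was called in 7 of 7 states and Slco1a4 in 18-hour formalin portions. In the unpaired fits 2 of the 10 members fell in ethanol (where 15.8% of all genes fell) and 6 in 18-hour formalin (20.6%). In 3-month formalin 5 fell (28.7%), in TAE 6 (27.4%) and in heat-only portions 7 (28.6%). In AllPrep catalyst portions 5 fell (22.6%), and in PureLink catalyst portions 6 (27.7%). In the last state Abcc2 rose, as did 31.5% of all genes. The median log2 fold change of the members was -0.47 to -0.15, beside -0.01 to 0.04 for all genes. RNA of the frozen portions was isolated with another kit than that of the catalyst portions. The heat-only portions are listed with the AllPrep kit. No kit is named in the sources used here for the remaining preserved states. Against frozen liver, preservation and isolation therefore cannot be told apart.

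**Figure D4:**
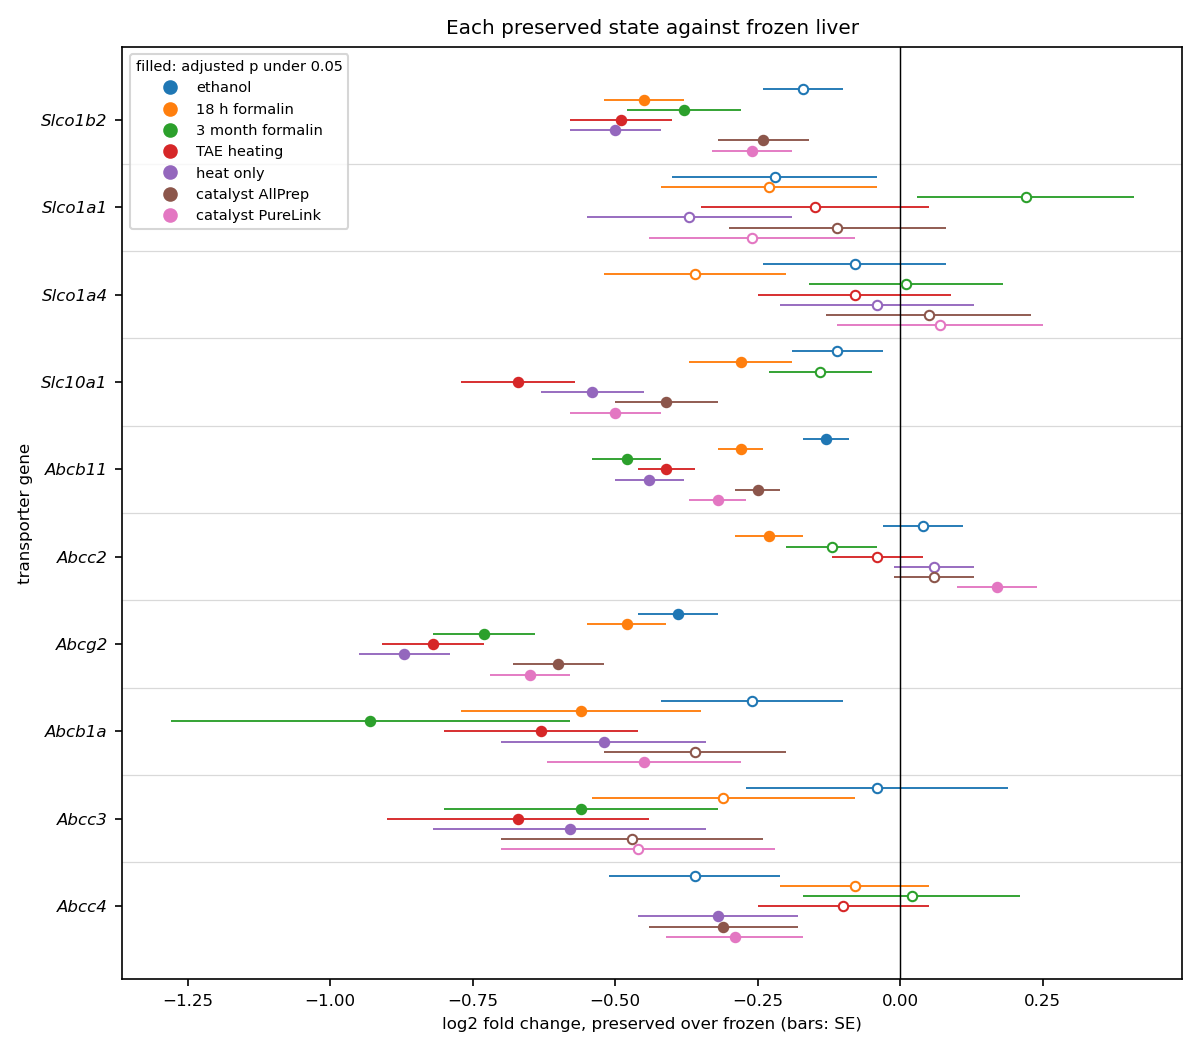
Log2 fold change of each preserved state over frozen liver (horizontal axis, bars are SE, 12 libraries each) for the 10 transporters (vertical axis) in the 7 preserved states (colours). Filled points have an adjusted p under 0.05, and those of Abcg2 reach furthest below 0 among the well-detected genes, from -0.87 to -0.39.

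Abcg2 had 72.1 ± 10.9 CPM in heat-only portions and 133 ± 19.6 CPM in frozen portions (SD, n = 12 each), a log2 fold change of -0.87 ± 0.08 (SE, adjusted p = 1.76e-09), and it was lower in the preserved portion in 12 of 12 animals. The 2 sets of libraries did not overlap. In ethanol portions, where the change was smallest, it was -0.39 ± 0.07 (SE, adjusted p = 0.000195). Its groups were apart in 6 of 7 states, all but ethanol. Of all genes, 0.46% were apart in this direction in ethanol, 2.09% in 18-hour formalin, 8.3% in 3-month formalin, 7.68% in TAE, 7.57% in heat-only, 5.08% in AllPrep and 7.73% in PureLink catalyst portions. Abcb11 had 917 ± 99.7 CPM in 3-month formalin portions and 1351 ± 79.2 CPM in frozen portions (SD, n = 12 each), a log2 fold change of -0.48 ± 0.06 (SE, adjusted p = 8.58e-08). In ethanol portions Abcb11 was at -0.13 ± 0.04 (SE, adjusted p = 0.0207), and its groups were apart in 4 states. Slc10a1 moved most in TAE portions, with 308 ± 77.2 CPM there and 504 ± 98.1 CPM in frozen portions, a log2 fold change of -0.67 ± 0.10 (SE, adjusted p = 3.54e-06). Slco1b2 was at -0.50 ± 0.08 (SE, adjusted p = 8.96e-06) in heat-only and -0.24 ± 0.08 (SE, adjusted p = 0.0138) in AllPrep catalyst portions.

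Abcc3 was called lower in 3-month formalin, at -0.56 ± 0.24 (SE, adjusted p = 0.0462), in TAE, at -0.67 ± 0.23 (SE, adjusted p = 0.0128), and in heat-only portions, at -0.58 ± 0.24 (SE, adjusted p = 0.0433). Leaving out the shallowest library, control 8A, brought the 3-month formalin value to -0.54 at an adjusted p of 0.0613, within a range of 4.43e-10 to 0.0613 over the alternatives. The same call was lost with library totals alone (0.0581) and DESeq2 (0.0531), the TAE call with library totals alone (0.0761), and the heat-only call with library totals alone (0.24) and DESeq2 (0.0631). For Abcc2 the log2 fold change ran from -0.23 ± 0.06 (SE, adjusted p = 0.00392) in 18-hour formalin to 0.17 ± 0.07 (SE, adjusted p = 0.0419) in PureLink catalyst portions, and the second of these was lost with RLE scaling (0.0574), no low-count filter (0.137) and DESeq2 (0.0756). With library totals alone the 18-hour formalin value was -0.05 (adjusted p = 0.536), and Abcc2 was called higher in TAE at 0.19 (0.036), AllPrep at 0.27 (0.00101) and heat-only portions at 0.32 (0.000701). With no filter it was called lower in 3-month formalin portions, at -0.22 (0.0382). The rarest members were called lower in several states, with a log2 fold change for Abcb1a of -0.93 ± 0.35 in 3-month formalin and for Abcc4 of -0.32 ± 0.14 in heat-only portions. The last was lost with RLE scaling (0.0618), library totals alone (0.732), no filter (0.0929) and DESeq2 (0.069). With library totals alone Abcc4 also lost its AllPrep and PureLink calls (0.534 and 0.886), the second also with no filter (0.0542). Abcb1a kept its 3-month formalin and TAE calls in every alternative. Its 18-hour formalin, heat-only and PureLink calls were lost with library totals alone (0.113, 0.181 and 0.335), the first also with no filter (0.0549).

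The libraries of an animal deviated together in every pair of states, so the fits with the animal as a replicate block are given too. With the block, 6 of 10 members fell in ethanol portions (where 27.1% of all genes fell). In 3-month formalin portions 7 fell and 1 rose (32.1% and 33.9% of all genes), and 8 fell in AllPrep catalyst portions (28.6%). In 18-hour formalin portions 9 fell, as did 4129 of 13882 genes, in TAE 7 (4467 of 13833) and in heat-only portions 8 (4645 of 13889). In PureLink catalyst portions 8 fell and 1 rose, as did 4729 and 5339 of 14132 genes. Slco1a1 was then called in 7 of 7 states, lower in 6 of them and higher after 3 months in formalin, at 0.22 on the log2 scale (adjusted p = 0.000574). Abcc3 was lower in 6 of 7 and Slc10a1 and Slco1b2 in 7 of 7 in these paired fits. Abcb1a gained AllPrep catalyst portions (adjusted p = 0.0193), Abcc4 ethanol portions (0.00111), Abcc2 a fall in 3-month formalin (0.0207) and Slco1a4 a fall in 18-hour formalin portions (adjusted p = 1.18e-07). Scaling by library totals alone, which moved the median of all genes to between 0.06 and 0.30 in the 7 states, left Abcg2 lower and called in all 7. Of all genes, 26.2 to 57.9% were then higher and 6.4 to 26.5% lower over the states, against 17.0 to 31.8% and 15.8 to 28.7% with TMM. With library totals alone 2 members fell in 18-hour formalin portions (6.79% of all genes), 1 rose and 1 fell in AllPrep (51.2% and 10.7%), and 1 rose and 2 fell in PureLink catalyst portions (57.9% and 12.2%). With that scaling Abcb11 was not called in ethanol, 18-hour formalin, AllPrep or PureLink portions (adjusted p of 0.518, 0.0748, 0.394 and 0.318), Slc10a1 in 18-hour formalin and AllPrep portions (0.478 and 0.068), and Slco1b2 in AllPrep portions (0.752). The log2 fold change of Slco1b2 in PureLink portions, a called fall with TMM, was then 0.0103.

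Markers of liver cells moved in the same comparisons, in which 15.8 to 28.7% of all genes fell and 17.0 to 31.8% rose over the states. In heat-only portions 7 of 8 hepatocyte, 7 of 8 sinusoidal endothelial, 7 of 8 Kupffer and 5 of 8 stellate markers fell, with median log2 fold changes of -0.91, -0.62, -0.86 and -0.63. In ethanol portions 5 of 8 hepatocyte, 8 of 8 endothelial, 5 of 8 Kupffer and 6 of 8 stellate markers fell. Their medians were -0.26, -0.51, -0.42 and -0.41. After 18 hours in formalin 6 of 8 hepatocyte markers fell, beside 20.6% of all genes. Of the endothelial, Kupffer and stellate markers, 2 of 8 each fell there. After 3 months in formalin 6 of 8 hepatocyte markers fell, while 3 of 8 endothelial markers (Ptprb, Pecam1 and Lyve1) rose and 2 fell, with a median of 0.04. Of the Kupffer markers 4 of 8 fell there, and of the stellate markers 3 of 8. In TAE portions 7 of 8 hepatocyte, 6 endothelial, 4 Kupffer and 5 stellate markers fell. In this order the falls were 7, 7, 5 and 5 in AllPrep and 7, 7, 7 and 5 in PureLink catalyst portions. Stellate Lrat rose in 18-hour formalin, 3-month formalin and TAE portions. Hnf4a rose among the hepatocyte markers in 5 of 7 states, all but ethanol and PureLink catalyst portions. The summed hepatocyte markers in 3-month formalin portions were 22087 to 50729 CPM in phenobarbital and 32480.2 to 64166 CPM in control livers, below most of the frozen values given above. Their part in the transporter falls was not tested.

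The last comparison asked whether treating 3-month formalin material changed the transporters, against the untreated material, in fits without pairing by animal. Slc10a1 fell in 4 of 4 treatments, with log2 fold changes of -0.51 ± 0.11 (SE, adjusted p = 0.00201) in TAE, -0.35 ± 0.10 (SE, adjusted p = 0.00589) in heat-only, -0.25 ± 0.10 (SE, adjusted p = 0.0341) in AllPrep and -0.32 ± 0.09 (SE, adjusted p = 0.00354) in PureLink catalyst portions. Slco1a1 fell in heat-only portions, at -0.53 ± 0.18 (SE, adjusted p = 0.0168), and PureLink portions, at -0.44 ± 0.18 (SE, adjusted p = 0.0371). Abcb11 rose in AllPrep portions, by 0.24 ± 0.06 (SE, adjusted p = 0.00192), and PureLink portions, by 0.20 ± 0.06 (SE, adjusted p = 0.00635), reaching 1108 ± 65.0 CPM in AllPrep catalyst, against 917 ± 99.7 CPM in untreated portions. Abcc2 rose in heat-only portions, by 0.23 ± 0.09 (SE, adjusted p = 0.0335), and PureLink portions, by 0.32 ± 0.09 (SE, adjusted p = 0.00211). In all, 1 member fell in TAE (where 9.42% of all genes fell), and 1 rose and 2 fell in heat-only portions (23.5% and 23.3% of all genes). In AllPrep portions 1 rose and 1 fell (23.8% and 23.6%), and in PureLink portions 2 rose and 2 fell (30.8% and 29.0%). With the replicate block 2 members fell in TAE (17.5% of all genes), and 5 rose and 2 fell in AllPrep portions (29.6% and 28.2%). Paired in this way, 1 rose and 2 fell in heat-only portions, as did 3822 and 3598 of 13283 genes. In PureLink portions 4 rose and 2 fell, as did 4737 and 4310 of 13556 genes. Abcg2 had log2 fold changes of -0.09 to 0.14 in these comparisons and was not called. In the paired fits it was higher in 2 of 4 and Slco1a1 lower in 4 of 4. Scaled by library totals alone, the Slc10a1 calls were lost in heat-only, AllPrep and PureLink portions (adjusted p of 0.154, 0.468 and 0.267), as were those of Slco1a1 in heat-only and PureLink portions (0.104 and 0.265). With no low-count filter the heat-only call of Abcc2 and the AllPrep call of Slc10a1 were lost (0.0581 and 0.0754). In the same comparisons sinusoidal endothelial markers fell, 6 of 8 in TAE and 7 of 8 in heat-only, AllPrep and PureLink portions, with median log2 fold changes of -0.69 to -0.43, and 1 (Stab2) rose in PureLink portions. Of the 8 hepatocyte markers 1 or 2 fell, and 2, Fah and Apoa1, rose in heat-only, AllPrep and PureLink portions. The part of these shifts in the transporter values was not tested.

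Beyond the 10 members, 41 of 48 other transporters and transporter-related genes could be tested in frozen liver. Of these, 4 rose and 2 fell with phenobarbital, beside 5.89% and 3.53% of all genes, with a median log2 fold change of -0.04. For Slc15a4, a lysosomal peptide and histidine carrier, the log2 fold change was 0.46 ± 0.12 (adjusted p = 0.029), a call lost without control 8A, 8C or 90C or phenobarbital 20B or 80B, at up to 0.0689. Abcg8, which with Abcg5 exports cholesterol into bile, fell to 67.2 CPM in phenobarbital livers, against 86 CPM in control livers (log2 fold change -0.36 ± 0.09, adjusted p = 0.0286). Its call was lost without control 8A, 21C or 90C or phenobarbital 20B or 80B, at up to 0.0721, and at 0.0529 when scaled by library totals alone. Other calls, named here after their values were seen, were rises of Slc22a18 and Pdzk1 and a fall of Abca3.

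Of 14 regulators of transporter genes, 2 rose and 5 fell in frozen liver, beside 5.89% and 3.53% of all genes. Ahr, the aryl hydrocarbon receptor, had 142 ± 20.6 CPM in phenobarbital and 61.4 ± 8.06 CPM in control livers (log2 fold change 1.21 ± 0.11, adjusted p = 1.04e-05), and it rose in 8 of 8 states. The PXR gene Nr1i2 rose in 6 of 8 states, and in frozen liver its log2 fold change was 0.39 ± 0.11 (adjusted p = 0.038), lost without control 8C, 8D, 82B or 90C or phenobarbital 20B or 80B, at up to 0.0872. Ppara, a regulator of fatty acid oxidation, had 160.5 ± 29.8 CPM in phenobarbital and 282 ± 65.5 CPM in control livers (log2 fold change -0.82 ± 0.15, adjusted p = 0.005) and fell in 8 of 8 states. Rxra, the partner of CAR and PXR, and Stat5b, which transmits growth hormone signals, fell in frozen liver with log2 fold changes of -0.29 ± 0.07 and -0.29 ± 0.07, the second lost without control 8A or 90C, at up to 0.0519. Over the 8 states Rxra was called lower in 2 and Stat5b in 1. Hnf4a also fell in frozen liver, and is named after its values were seen. It was called lower in 4 of 8 states. Its frozen call was lost without control 8A or 8D (0.0521 and 0.052) and with no low-count filter (0.0739). For Nr1i3, which encodes CAR, the frozen log2 fold change was -0.47 ± 0.22 (adjusted p = 0.202), and for Nr1h4 it was 0.03 ± 0.09 (adjusted p = 0.854), with no call in any of 8 states for either.

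Over the 16 group means, the genes whose log2 level was most like that of Abcc3 were Cyp26a1 (Pearson r = 0.998), Cyp2c29 and Cyp3a11 (0.996 each), out of 9642 genes with a mean of at least 5 CPM. For Slco1a1 they were Nrp1 (r = 0.961), Gpd2 (0.946) and Slc38a4 (0.945). These are descriptions over 16 means that share 12 animals. For Abcc3 the log2 fold changes were 3.21 to 3.5 by treatment and -0.67 to -0.04 by state against frozen liver. Any gene with a strong rise in every state would therefore reach a high r with it, and closer likeness was not tested.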

How the data were processed

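The table holds whole-number counts per gene for 96 libraries, deposited by the authors without normalization. CASAVA, STAR 2.5, edgeR and the builds GRCm38 and mm10 are named, with no roles, in the submitters' processing notes. Which tool counted the reads, with which annotation and by strand or not, is not given in the sources used here. Frozen RNA was isolated with RNAzol RT and RNeasy MinElute, per the labels' protocols. From the table, 92 spike-in lines (110 counts) were left out, and symbols and coordinates came from GENCODE M21 on GRCm38, which matched 46954 of 47373 genes. Each comparison was fitted with edgeR 4.0.16 (R 4.3.3) over all genes passing its low-count filter, with TMM scaling, the quasi-likelihood test and Benjamini-Hochberg adjustment. CPM values are TMM-scaled over all 96 libraries. Each group holds 1 library from each of 6 animals. The fits were tested on simulated counts. Alternatives were RLE scaling, library totals alone, no low-count filter, DESeq2 1.42.0, each animal left out, the animal as a replicate block and, chosen after seeing the data, the shallowest library left out. Animal numbers in the labels pair the states: in 336 of 336 same-animal pairs the deviations from group means correlated above 0.1 over 9223 genes (median 0.697, other animals -0.131). The members and all gene lists were chosen with earlier results of these data known. All members were named; of the lists, the 4 rises and 4 falls of largest fold change in frozen liver at 1 CPM or more, and Cyp2b10, Nr1i3, Nr1i2 and Nr1h4. Some genes that this rule or the counts include are not reported here by name. Likeness was Pearson r of log2(CPM + 1) over the 16 group means, for genes averaging at least 5 CPM.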

Additional observations from a re-analysis of the deposited data

Results flagged for a closer look

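Among the 160 combinations of member, state and treatment group, 17 had a single library whose gap to its nearest neighbour, as a share of the group's range, was above Dixon's 95% critical value for 6 samples (0.625). Chance picks out about 1 in 20 groups, or 8 here, and the states share animals, so the 17 are not independent. All 17 libraries are controls, and 12 of them are animal 21C. For Abcc3, 21C had 136 CPM in ethanol, where the other controls had 32.0 to 65.1 CPM. Its Abcc3 level was 117 CPM in 18-hour formalin, 80.8 in TAE, 105 in heat-only, 99.4 in AllPrep and 112 CPM in PureLink catalyst portions, where no other control was above 58.0 CPM. For Slco1b2 the same animal had 1993 CPM in frozen liver (other controls 1426 to 1549), 1522 in 18-hour formalin, 1811 in AllPrep and 1826 CPM in PureLink catalyst portions. Its Slco1a4 level was 34.0 CPM in TAE (other controls 12 to 19.4) and 38.2 CPM in heat-only portions (other controls 15.6 to 22.6).

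The other 5 values of this kind were in genes of low count or single states. Abcc4 was 5.41 CPM in control 8D in 18-hour formalin and 4.47 CPM in control 8C in heat-only portions. Abcb1a was 1.68 CPM in control 90C in ethanol and 1.84 CPM in control 8D in TAE portions, the library without which Abcb1a passed the threshold there. Abcg2 was low, at 55.4 CPM, in control 82B after 3 months in formalin, where the other controls had 77.4 to 88.8 CPM.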

How the results depend on the processing

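With each animal left out in turn, every count of members called in the phenobarbital comparisons stayed within 1.5 times, and 883 of 948 single values kept their direction and side of the threshold, 46 lost the call, 6 gained it and 13 changed sign. The 13 were of Abcg2 in frozen (-0.0089 to 0.1151), 3-month formalin (-0.1303 to 0.0179) and TAE (-0.0565 to 0.0791), Abcb11 in 3-month formalin (-0.0133 to 0.0683) and heat-only (-0.0456 to 0.0198), and Abcc4 in ethanol (-0.0263 to 0.2814), given as the range of log2 fold changes over the animals left out. Beyond these values, Nr1h4 in frozen liver (-0.0255 to 0.0872) also changed sign. With library totals alone Abcg2 was 0.0138 in 3-month formalin and 0.0023 in AllPrep portions. In the same setting, against untreated 3-month formalin, 2 members rose and 1 fell in TAE portions, as did 4064 and 368 of 13296 genes. In AllPrep portions 4 rose, as did 5097 of 13433 genes. Preserved against frozen, 1 member fell in ethanol, as did 890 of 13908 genes. With the shares given above, 2 were called in 18-hour formalin, 2 in AllPrep and 3 in PureLink portions. Sign changes there were Abcc3 (0.054) and Slco1a4 (0.0105) in ethanol, Abcc4 (0.1036) in 18-hour formalin, Abcc2 (0.1916), Abcc4 (0.1353), Slco1a1 (0.0734) and Slco1a4 (0.1466) in TAE, Slco1a1 (0.0982) in AllPrep, Slco1a1 (0.0119) and Slco1b2 (0.0103) in PureLink and Slco1a4 (0.2181) in heat-only portions. With no low-count filter 1 member fell in ethanol against frozen, as did 1937 of 28322 genes. In AllPrep against untreated portions 1 rose, as did 3664 of 28526 genes. With the replicate block, paired by animal, some counts moved by over 1.5 times. They were 6 members called in ethanol, 8 in 3-month formalin and 8 in AllPrep against frozen. Against untreated portions they were 2 in TAE and 7 in AllPrep. In 3-month formalin against frozen, Abcc4 was -0.0076 (RLE), -0.0819 (no filter), -0.0086 (DESeq2), -0.0123 (replicate block) and -0.0353 (shallowest library out), and Slco1a4 -0.0158, -0.0854, -0.0122, -0.0215 and -0.0285 in that order. The cause was not tested. Counting intervals were not computed.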
